A study of Macaca mulatta with 161 samples.

Results

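The genes described here are GAST, the precursor of the hormone gastrin, and NPY, the precursor of neuropeptide Y. They are 2 of the 16049 genes in the deposited expression table. They were picked by name with earlier results of these data known, in which both were among the genes that differed most between hatching and late cells. They were followed across all 161 cells by stage, by the number in the cell title, and by the levels of NANOG and SOX17. Because the measured values led to the choice, all values below are a description and none is a test.

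The cells were inner cells of rhesus monkey (Macaca mulatta) blastocysts, 1 sequencing library per cell. Embryos came from fertilised oocytes of hormone-stimulated females and were grown in HECM-9 medium with serum. PKH26, a dye that labels membranes, marked the outer cells, and only unmarked cells were counted as inner. There were 44 cells from early blastocysts with a small cavity (about embryonic day 5), 39 from middle blastocysts (about day 5.5), 52 from late blastocysts with a fully expanded cavity (about day 6) and 26 labelled hatching (about day 7), which the protocol describes as hatched from the zona pellucida. No treatment or genotype separates the stages, and the labels do not name the embryo or animal behind a cell. Each stage is therefore 1 sample, cells are not replicates, and no p-value is given.

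Gastrin is a peptide hormone that G cells of the stomach release to stimulate acid secretion, acting on the receptor CCKBR. Its closest relative is cholecystokinin, made from CCK. Neuropeptide Y is released by neurons of the brain and by sympathetic nerves, and belongs with peptide YY and pancreatic polypeptide to a family that acts on the Y receptors. Both peptides are cut from longer precursors by prohormone convertases, trimmed by carboxypeptidases and amidated by the enzyme PAM. NANOG is a transcription factor of the epiblast, which gives rise to the embryo proper, and SOX17 is a transcription factor of the primitive endoderm, which gives rise to the yolk sac.

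Levels are FPKM, a read abundance corrected for transcript length and for the mapped fragments of each cell. A cell was counted as having a gene at FPKM of at least 1. Means and differences were taken of log2(FPKM + 1), a scale that makes differences of low genes look smaller than they are. The value steps of the table gave back whole reads, a lower bound on depth: 2.90 to 18.3 M (mega) in a cell, with 10.9 M in the median cell. The stage medians were 10.2 M in early, 11.8 M in middle, 10.2 M in late and 10.7 M in hatching cells. With these depths, 1 FPKM corresponded in the median cell to 5.64 reads of GAST and 6.58 reads of NPY. Intervals on shares are exact Clopper-Pearson 95% intervals. They reflect only how many cells were counted, and cells that come from a common embryo would call for wider ones. The cells E9 (early) and L13 (late) stood apart from the others, since neither reached 10 FPKM of NANOG or of SOX17. Cell L13 had the fewest reads, 2.90 M, and 12 of the 13 trophectoderm markers at FPKM of at least 1. Leaving out both cells changed neither the direction of a GAST or NPY difference nor, by more than the spread between cells, its size.

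GAST was present at every stage, highest in late cells and lowest in hatching cells. It ranged from 0 to 2018.5 FPKM in early cells, with a median of 25.7. The highest early value was that of E9, and the next highest was 780 FPKM. In middle cells GAST ranged from 0 to 473 FPKM with a median of 19.6. In late cells the range was 0 to 2449 FPKM with a median of 161. In hatching cells the range was 0 to 81.3 FPKM and the median was 0.310. All 4 ranges overlapped at their low end, because every stage held cells at 0, but 32 of 52 late cells and 0 of 26 hatching cells reached 100 FPKM; 0 of 26 allows a share of up to 11.5%.

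The share of cells with GAST followed the same order at its ends. It was 65.9% in early (29 of 44, interval 50.1% to 79.5%), 71.8% in middle (28 of 39, 55.1% to 85%), 88.5% in late (46 of 52, 76.6% to 95.6%) and 34.6% in hatching cells (9 of 26, 17.2% to 55.7%). The mean level was 4.21 ± 3.30 in early, 3.61 ± 2.64 in middle, 6.27 ± 3.19 in late and 1.32 ± 2.03 in hatching cells (log2 scale, SD between cells). In this order from late to early to middle to hatching, no neighbouring gap (2.05, 0.60 and 2.29) exceeded the larger SD of its pair. The spread within a stage ran from cells at or near 0 to high cells. Of 161 cells, 17 had GAST at 0, 32 above 0 but under 1 FPKM, 19 from 1 to under 10 FPKM and 93 at 10 FPKM or more. The 32 cells with GAST above 0 but under 1 FPKM rested on 1 to 6 reads each, with a median of 2 reads.

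NPY had another course. It was scarce in early, middle and most late cells and present in most hatching cells. The median was 0 FPKM in early cells (highest 36.2), 0 in middle cells (highest 3.36), 0.0712 in late cells (highest 4191) and 45.6 in hatching cells (highest 604). The lowest value was 0 at every stage. NPY was found in 15.9% of early (7 of 44, 6.64% to 30.1%), 10.3% of middle (4 of 39, 2.87% to 24.2%), 28.8% of late (15 of 52, 17.1% to 43.1%) and 84.6% of hatching cells (22 of 26, 65.1% to 95.6%). The hatching interval did not overlap the interval of any earlier stage. This is a description and no test, because cells are not replicates. NPY was also picked with its difference between hatching and late cells known.

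The mean NPY level was 0.65 ± 1.53 in early, 0.22 ± 0.50 in middle, 1.39 ± 2.74 in late and 4.90 ± 2.94 in hatching cells (log2 scale, SD between cells). From hatching to late to early to middle, the gap between hatching and late (3.51) exceeded the larger SD of its pair, while the gaps of 0.75 and 0.43 did not. At 10 FPKM or more, NPY was seen in 5 early, 0 middle, 7 late and 19 hatching cells; 0 of 39 allows a share of up to 7.69% of middle cells.

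**Figure D1:**
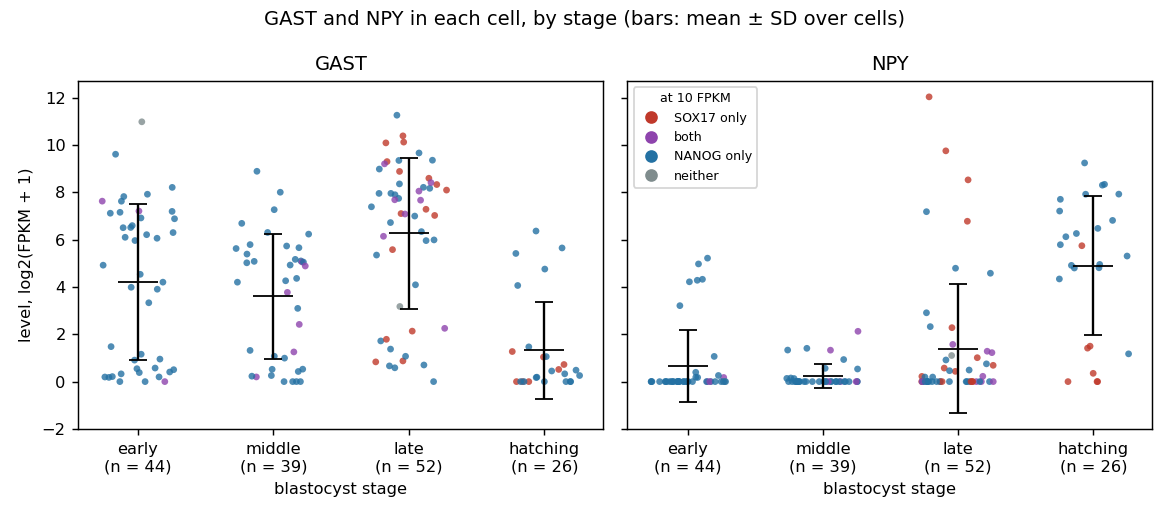
Each point is 1 cell, with GAST on the left and NPY on the right; the vertical axis is log2(FPKM + 1), the colour is the NANOG and SOX17 class at 10 FPKM, and bars give the mean ± SD over cells. GAST has its highest mean in late cells (6.27) and its lowest in hatching cells (1.32), while NPY has its highest mean in hatching cells (4.90).

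Stage steps were read against all 9781 genes with a mean of at least 1 FPKM, taking a difference of 2 log2 units as the fold. GAST was higher in late than in middle cells by 2.66, the 14th highest of the 9781 differences; 0.511% of genes were higher by at least 2. Within the title number ranges described below, this difference of late minus middle cells was 1.47 in the higher numbers, under the fold, and 4.90 in the lower numbers. Between hatching and late cells GAST differed by -4.95, the 2nd lowest of all genes, where 1.01% of genes were lower by at least 2. It was -3.54 within the higher and -7.53 within the lower numbers. NPY was higher in hatching than in late cells by 3.51, the 9th highest, where 1.38% of genes were higher by at least 2. It was 4.34 within the higher and 2.51 within the lower numbers. These placings led to the choice of both genes and are no support for it. The median difference of all genes between hatching and late cells was -0.14.

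Set against early cells, hatching cells differed in GAST by -2.90, in a comparison where 3.84% of genes were lower by at least 2. This rested on the lower title numbers: it was -0.16 within the higher and -5.17 within the lower numbers. For NPY the difference between hatching and early cells was 4.25, with 3.15% of genes higher by at least 2, and it was 6.17 within the higher and 2.12 within the lower numbers. The middle and early stages differed by less than 2 log2 units in both genes, at -0.60 for GAST and -0.43 for NPY, where 0.235% of genes were lower by at least 2. For GAST the number ranges had opposite signs in this step, at 1.91 within the higher and -2.54 within the lower numbers. NPY differed by 1.17 between late and middle cells, which is also under the fold used, with 2.03 within the higher and 0.21 within the lower numbers. Which of these values belongs to the stage and which to the number range was not tested.

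The difference in NPY between hatching and late cells depended on how cells were averaged. The mean FPKM of NPY was 104 in hatching and 110.5 in late cells, a difference of -0.09 on the log2 scale of the means, against 3.51 for the mean of log2 values. A single late cell, L38, with 4191 FPKM, held 72.9% of the NPY summed over late cells. Without L38 the late mean was 30.5 FPKM and the difference of hatching minus late was 1.74 on the log2 scale of the means. Without the 7 late cells at 10 FPKM or more the late mean was 0.571 FPKM and this difference was 6.06. Both values leave out high cells on the late side only, which raises the difference by construction. They show the weight of these cells and are not estimates of the stage difference.

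Within stages, the number in the cell title went with GAST in early and late cells. The labels do not say what the numbers stand for, so whether a range is an embryo, an animal or a day was not tested. The ranges were those of an earlier analysis of these data, so they were not chosen apart from the values. Early cells numbered 29 to 48 had a GAST median of 0.325 FPKM (lowest 0, highest 241, 7 of 19 cells with GAST). Early cells numbered 1 to 28 had a median of 95.5 FPKM (lowest 0.460, highest 2018.5, 22 of 25 cells). The highest of these 25 was E9, and the next highest value was 780 FPKM. The mean level was 1.95 ± 2.61 in the higher and 5.94 ± 2.68 in the lower numbers, a difference of -3.99 that was the 2nd lowest of 9781 genes, with 0.675% of genes lower by at least 2. The NANOG-only early cells showed it as well, at 2.06 (n = 18) in the higher and 5.57 (n = 22) in the lower numbers.

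Depth moved with this split. Early cells numbered 29 to 48 had a median of 13.6 M recovered reads and those numbered 1 to 28 had 8.23 M. Over all 44 early cells GAST and recovered reads had a Spearman correlation of -0.60, within the higher numbers it was -0.24, and within the lower numbers -0.25. In middle cells it was -0.84 within the higher (n = 12) and -0.25 within the lower numbers. In late cells it was -0.11 within the higher and 0.34 within the lower numbers, and in hatching cells -0.04 and 0.50. Cells that share a range may share an embryo or a run, so these correlations are descriptions, and the part of depth in the early difference was not tested.

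Late cells split by number too. Late cells numbered 25 to 61 had a GAST median of 79.9 FPKM (lowest 0.499, highest 1088, 25 of 29 cells with GAST). Late cells numbered 3 to 22 all had GAST, with a median of 280 FPKM (lowest 8.03, highest 2449, 18 of 18 cells). The lowest of these 18 was L13. The mean was 5.32 ± 3.22 in the higher and 8.30 ± 1.73 in the lower numbers, and the difference of -2.98 was the lowest of all genes, in a comparison with 0.164% of genes lower by at least 2. Median depth was 10.8 M reads in the higher and 9.89 M in the lower numbers. In middle cells the ranges 32 to 55 and 3 to 29 differed by 0.46 in GAST, and in hatching cells the ranges 22 to 47 and 1 to 18 differed by 1.01. A further 7 cells, 2 middle and 5 late, carry the title prefix HS and stood outside these ranges. GAST was found in both such middle cells and in 3 of the 5 late ones, and NPY was listed at 0 in all 7, which allows a share of up to 42.9%.

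For NPY, the hatching cells numbered 22 to 47 all reached 10 FPKM, with a median of 78.3 FPKM (lowest 19.2, highest 604, n = 14). Hatching cells numbered 1 to 18 had a median of 1.74 FPKM (lowest 0, highest 208, 8 of 12 cells with NPY). The mean of 6.54 ± 1.60 in the higher numbers and that of 2.98 ± 3.02 in the lower numbers differed by 3.56, where 6.39% of genes were higher by at least 2 and the median gene differed by 0.36. All 7 SOX17-only hatching cells lie in the lower numbers, so number and class cannot be told apart for them. Within NANOG-only hatching cells alone the mean was 6.54 ± 1.60 in the higher (n = 14) and 5.35 ± 2.56 in the lower numbers (n = 5), a gap smaller than the larger SD. Median depth was 13.1 M reads in the higher and 8.63 M in the lower numbers.

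**Figure D2:**
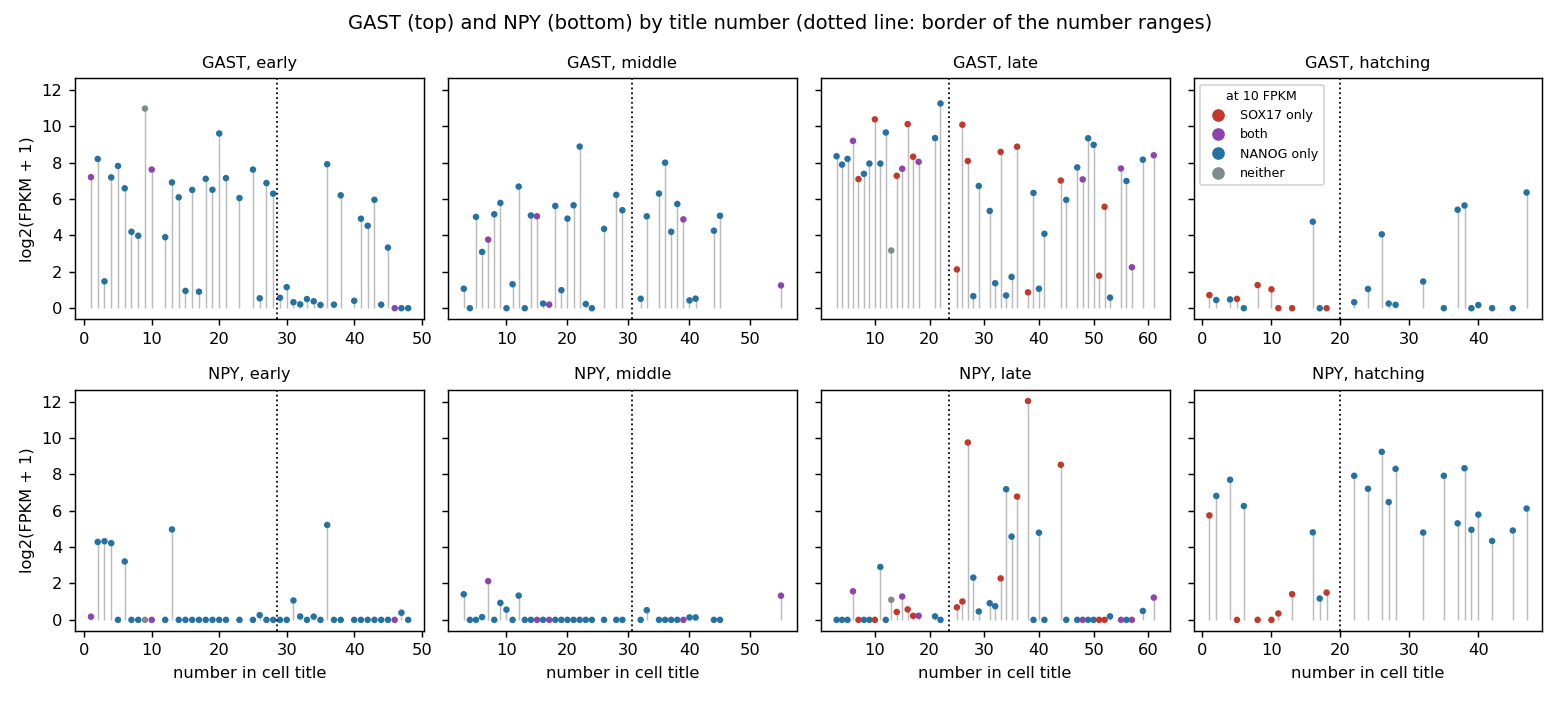
Each stem is 1 cell placed by the number in its title (horizontal axis), with its level as log2(FPKM + 1) (vertical axis), GAST in the top row and NPY in the bottom row, from early on the left to hatching on the right; dotted lines mark the border between number ranges, and the 7 cells with another title prefix are left out. GAST is low in most early cells numbered 29 to 48, and late NPY at 10 FPKM or more lies between the numbers 27 and 44.

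The 7 late cells at 10 FPKM or more of NPY all had title numbers from 27 to 44. This stretch holds 14 cells, and its borders were set by the 7 cells. Of the other 38 late cells, 33 without the HS prefix were below 10 FPKM by construction, and the 5 with it were at 0. The stretch was read off the values, so it is a description. Going up in number, NPY was 861 FPKM in L27, 4.0 in L28, 0.376 in L29, 0.884 in L31, 0.682 in L32, 3.86 in L33 and 144 in L34. It was then 22.9 FPKM in L35, 109 in L36, 4191 in L38, 0 in L39, 26.7 in L40, 0 in L41 and 367 in L44. High and near-0 cells thus sat side by side in the numbering. The highest NPY value among the other 38 late cells was 6.51 FPKM, and their median was 0.

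GAST was under 10 FPKM in 6 of the 14 cells of the stretch and in 7 of the other 38 late cells. Its mean level was 4.39 ± 3.23 inside and 6.96 ± 2.92 outside. The whole stretch lies in the higher late numbers, where GAST was lower in general. Among the other 15 higher-numbered late cells 4 were under 10 FPKM, with a mean of 6.19 ± 3.06, so the gap within the higher numbers was smaller than the SD. The stretch held 5 SOX17-only and 9 NANOG-only cells, so both classes were in it, and its median depth of 10.8 M reads was close to the 10.1 M outside.

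NANOG and SOX17 at 10 FPKM were used to place cells into ranges, which are not cell types. The early stage had 0 SOX17-only, 3 double, 40 NANOG-only and 1 cell with neither. The middle stage had 0 SOX17-only, 6 double and 33 NANOG-only cells. The late stage had 16 SOX17-only, 8 double, 27 NANOG-only and 1 cell with neither, and the hatching stage had 7 SOX17-only and 19 NANOG-only cells with 0 between them. Within a factor of 2 of the threshold lay 6 late cells for NANOG, 6 late cells for SOX17, and in hatching cells 1 for NANOG and 0 for SOX17. Other markers went the same way as the class. In hatching cells the summed FPKM of 15 primitive endoderm markers was 22675 to 87609 in SOX17-only and 178 to 2030 in NANOG-only cells, and that of 10 epiblast markers was 14.9 to 384 in SOX17-only and 1929 to 4135 in NANOG-only cells.

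In late cells GAST was high in all 3 classes. SOX17-only cells had a median of 213 FPKM (lowest 0.782, highest 1337, 14 of 16 with GAST). Double cells had a median of 203 FPKM (lowest 3.76, highest 588, 8 of 8). NANOG-only cells had a median of 127 FPKM (lowest 0, highest 2449, 23 of 27). The ranges overlapped almost fully, and SOX17-only minus NANOG-only cells differed by 0.73, less than the SD of 3.38 in SOX17-only or 3.37 in NANOG-only cells. Over the 52 late cells GAST had a Spearman correlation of -0.02 with NANOG and 0.04 with SOX17. Within the late number ranges the classes stayed close as well. The means were 5.89 ± 3.47 in SOX17-only (n = 9) and 4.74 ± 3.24 in NANOG-only cells (n = 16) numbered 25 to 61, and 8.64 ± 1.55 in SOX17-only (n = 5) and 8.67 ± 1.21 in NANOG-only cells (n = 9) numbered 3 to 22.

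In hatching cells GAST was low in both classes. In SOX17-only cells it ranged from 0 to 1.41 FPKM with a median of 0.428, and 2 of 7 reached 1 FPKM. In NANOG-only cells it ranged from 0 to 81.3 FPKM with a median of 0.256, and 7 of 19 reached 1 FPKM. The 5 hatching cells at 10 FPKM or more were all NANOG-only, namely H16 (26 FPKM), H26 (15.7), H37 (41.7), H38 (49.2) and H47 (81.3). SOX17-only minus NANOG-only cells differed by -1.11, and by -0.63 within the lower title numbers.

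Compared within a class, GAST was lower in hatching than in late cells in both. SOX17-only cells had means of 0.51 ± 0.53 in hatching and 6.65 ± 3.38 in late cells, a difference of -6.14 and the lowest of all genes, where 10.4% of genes were lower by at least 2 and the median gene differed by -0.40. NANOG-only cells had means of 1.61 ± 2.30 in hatching and 5.92 ± 3.37 in late cells, a difference of -4.31, where 1.16% of genes were lower by at least 2. This was -2.95 within the higher and -7.53 within the lower title numbers. In NANOG-only cells GAST was higher in late than in middle cells by 2.19, with 1.13% of genes higher by at least 2. Within the higher title numbers the means were 4.74 in late (n = 16) and 4.01 in middle cells (n = 10). That gap is under the fold of 2. Within the lower numbers the means were 8.67 in late (n = 9) and 3.45 in middle cells (n = 22). The middle stage had no SOX17-only cells to compare.

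NPY separated the classes in hatching cells. The 7 SOX17-only cells had 52.5 FPKM in H1, 0 in H5, H8 and H10, 0.274 in H11, 1.66 in H13 and 1.82 in H18. The 19 NANOG-only cells had a lowest value of 1.26 FPKM (H17), a median of 75.6 and a highest of 604. All 19 NANOG-only cells had NPY (interval 82.4% to 100%) and 18 of them reached 10 FPKM, while 3 of 7 SOX17-only cells had it and 1 reached 10 FPKM. H1 lay among the NANOG-only cells, H13 and H18 lay above the lowest NANOG-only cell, H17, and the other 4 SOX17-only cells lay below all NANOG-only cells.

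The mean NPY level was 1.29 ± 2.07 in SOX17-only and 6.23 ± 1.90 in NANOG-only hatching cells. The difference of -4.94 was the 59th lowest of 9781 genes, in a comparison with 14.1% of genes lower by at least 2 and a median gene at -0.45. Without H1 it was -5.69. Among the hatching cells numbered 1 to 18, where both classes occur, the means were 1.29 ± 2.07 in 7 SOX17-only and 5.35 ± 2.56 in 5 NANOG-only cells, with a median depth of 8.95 M reads in the SOX17-only and 8.14 M in the NANOG-only cells. Over all hatching cells the SOX17-only class had 8.95 M reads and 5680 genes at 1 FPKM in the median cell, and the NANOG-only class 12.2 M reads and 6940 genes. The part of depth in the NPY difference was not tested beyond the split by number.

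In late cells the high NPY values were in both classes. SOX17-only cells had a median of 0.418 FPKM (lowest 0, highest 4191, 6 of 16 with NPY and 4 at 10 FPKM or more). Double cells had a highest value of 1.97 FPKM. NANOG-only cells had a median of 0 FPKM (lowest 0, highest 144, 5 of 27 with NPY and 3 at 10 FPKM or more). SOX17-only minus NANOG-only cells differed by 1.73, less than the larger SD of 4.11, and by 1.10 without L38. Within the higher title numbers the difference was 3.21 and within the lower numbers -0.10. The pooled sign is opposite to that in hatching cells, and whether the classes differ in another way at the later stage was not tested.

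Within NANOG-only cells NPY was 6.23 ± 1.90 in hatching and 0.92 ± 1.85 in late cells. The difference of 5.31 was the 2nd highest of all genes, with 1.81% of genes higher by at least 2. Within SOX17-only cells NPY was 1.29 ± 2.07 in hatching and 2.64 ± 4.11 in late cells, a difference of -1.36 that moved between -2.10 without H1 and -0.73 without L38. Within the lower title numbers, which hold all the SOX17-only hatching cells, it had the opposite sign, at 1.04. With a class threshold of 100 FPKM it was -3.55. No direction of NPY between these stages is therefore given for SOX17-only cells.

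**Figure D3:**
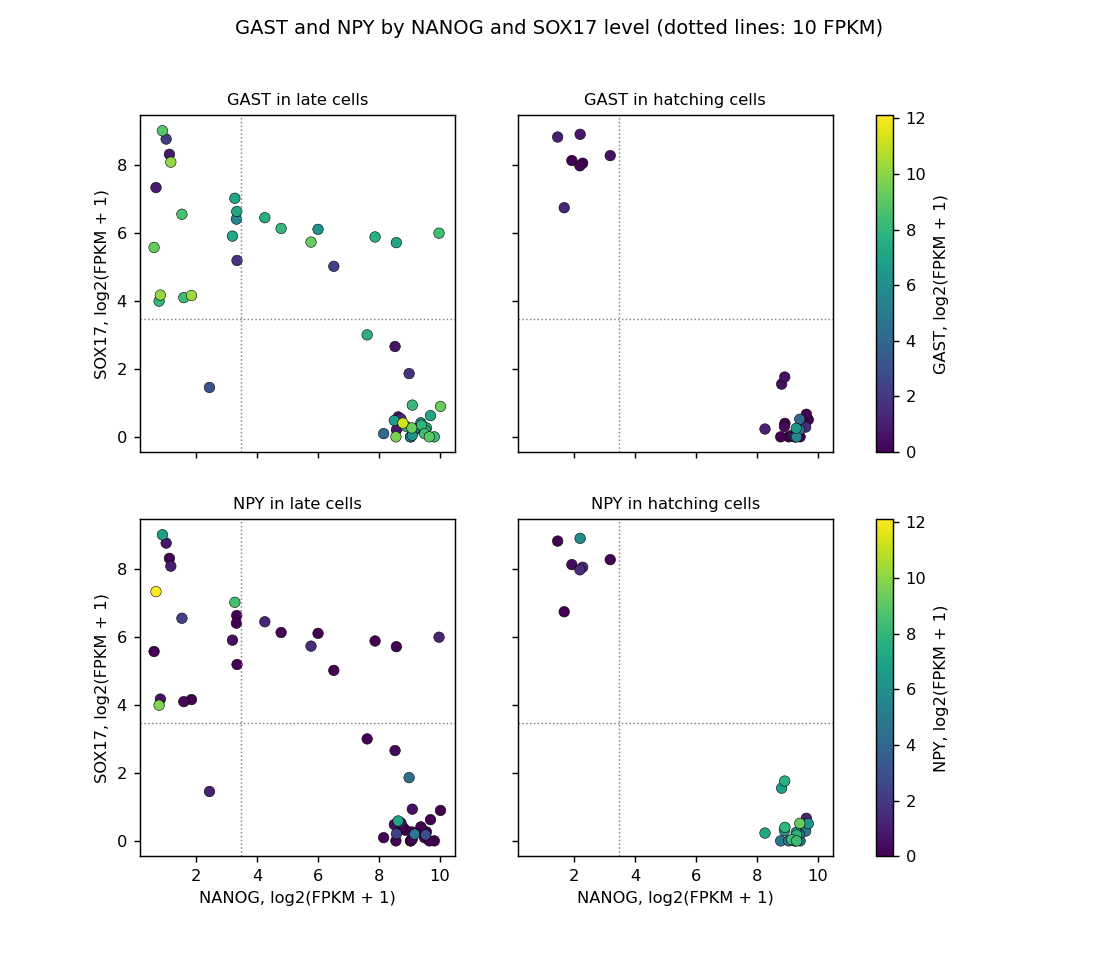
Late cells are on the left and hatching cells on the right, each point 1 cell placed by NANOG (horizontal axis) and SOX17 (vertical axis), both as log2(FPKM + 1); the colour is GAST in the top row and NPY in the bottom row on the same scale, and dotted lines mark 10 FPKM. Late cells with high GAST lie in all occupied parts of the plot, and in hatching cells high NPY lies with high NANOG except in 1 SOX17-only cell.

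The genes were rarely high in the same cell. At 1 FPKM or more, both were present in 6 of 44 early, 4 of 39 middle, 12 of 52 late and 7 of 26 hatching cells. Over all cells 29 had both, 83 had GAST without NPY, 19 had NPY without GAST and 30 had neither, so the double cells were 25.9% of the cells with GAST and 60.4% of those with NPY. Of the cells without NPY at this level, 73.5% had GAST. These pooled shares mix stages, and the direction differed between them. GAST was in 85.7% of early, 100% of middle, 80% of late and 31.8% of hatching cells with NPY. In cells without NPY the shares were 62.2%, 68.6%, 91.9% and 50% in the same order. At 10 FPKM or more, both were present in 4 early, 0 middle, 3 late and 5 hatching cells. The 3 late cells, L27, L36 and L44, were all SOX17-only, and the 5 hatching cells were all NANOG-only.

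In late NANOG-only cells no cell was high in both genes. At 10 FPKM, 0 of 27 had both, which allows a share of up to 11.1%, while 20 had GAST only, 3 had NPY only and 4 had neither. The 3 cells with NPY were L34 (144 FPKM, with 0.627 FPKM of GAST), L35 (22.9, with 2.29) and L40 (26.7, with 1.10). Across these 27 cells the Pearson correlation of log2 levels was -0.55 and the Spearman correlation was -0.47, over cells that share stage, title ranges and depth. Late SOX17-only cells went otherwise, with a Spearman correlation of 0.01 over 16 cells. Cell L38, which had the highest NPY value, had 0.832 FPKM of GAST, while L27 had 861 FPKM of NPY and 272 FPKM of GAST.

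In early cells NPY and GAST met in few cells. The early cells at 10 FPKM or more of NPY were E2, E3, E4, E13 and E36, with 17.6 to 36.2 FPKM, and 4 of them had 120 to 295 FPKM of GAST. The other was E3, with 1.79 FPKM of GAST. GAST was also at 10 FPKM or more in 56.4% of the early cells under 10 FPKM of NPY, and 5 cells are too few to set against that share. In hatching cells each of the 5 cells with 10 FPKM or more of GAST also had 10 FPKM or more of NPY, while 14 had NPY at this level and GAST under 10 FPKM. The 5 cells were all NANOG-only, a class in which 18 of 19 hatching cells reached 10 FPKM of NPY. They are too few to set against that share. The per-cell plot of both genes shows these corners.

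**Figure D4:**
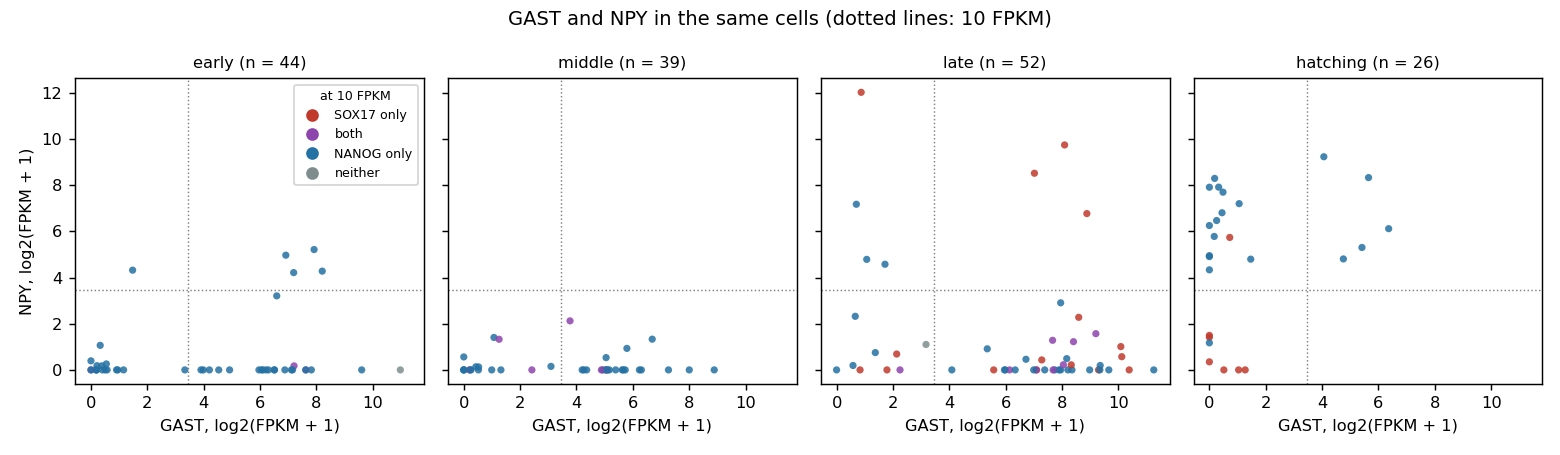
Each point is 1 cell placed by GAST (horizontal axis) and NPY (vertical axis), both as log2(FPKM + 1), with 1 panel per stage from early to hatching, colours for the NANOG and SOX17 class and dotted lines at 10 FPKM. The upper right corner, where both genes reach 10 FPKM, holds 4 early, 0 middle, 3 late and 5 hatching cells.

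Other genes of the gastrin and NPY families were nearly absent. CCK was listed at 0 in all 161 cells, which allows a share of up to 1.86%. CCKAR, the receptor that prefers cholecystokinin, was found in 1 early cell (5.5 FPKM) and in no other. CCKBR, the receptor for gastrin, was found in 1 early, 1 middle, 2 late and 3 hatching cells. The 3 hatching cells were all SOX17-only, with a highest value of 377 FPKM, and 0 of 19 NANOG-only hatching cells reached 1 FPKM (highest 0.902), which allows a share of up to 15.8%. The mean CCKBR level was 2.87 ± 3.68 in SOX17-only and 0.07 ± 0.22 in NANOG-only hatching cells, a difference of 2.79 within an SD of 3.68, where 6.22% of genes were higher by at least 2. Only 1 of these 3 cells had GAST at 1 FPKM.

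Among the NPY relatives, PPY, the precursor of pancreatic polypeptide, was found in 2 early, 2 middle, 1 late and 0 hatching cells, with a highest value of 131 FPKM. NPY1R, a Y receptor that binds neuropeptide Y, was found in 5 early, 3 middle, 3 late and 4 hatching cells. All 4 hatching cells with NPY1R were NANOG-only, at up to 10.9 FPKM of NPY1R. They had NPY as well, but so did all 19 NANOG-only hatching cells, so the class fixed this overlap. NPY2R and PPYR1 were listed at 0 in every cell, and NPY5R was found in 1 late cell. PPYR1 is an older symbol of NPY4R. PYY and NPY6R have no row under these symbols and were not analysed here.

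The processing enzymes of peptide precursors were read from a list of 17 genes, of which 15 have a row and 12 had a mean of at least 1 FPKM in some stage. Between hatching and late cells 1 of the 12 was higher by at least 2 and 0 were lower, with a list median of 0.25 beside -0.14 for all genes and with 1.38% of all genes higher and 1.01% lower. Between hatching and early cells 1 was higher and 2 were lower (FURIN and DPP4), where 3.15% of all genes were higher and 3.84% lower. The gene that was higher in both was CPE, carboxypeptidase E, which trims basic residues from cut precursors. It was found in 6 early, 0 middle, 17 late and 16 hatching cells. Its median was 0 FPKM in early and in middle cells, 0.112 in late cells and 31.8 in hatching cells.

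CPE was found mainly in NANOG-only cells. In hatching cells 0 of 7 SOX17-only cells had it (highest 0.381 FPKM), which allows a share of up to 42.9%, and 16 of 19 NANOG-only cells had it, with a median of 54.4 FPKM and a highest of 250 FPKM. All 16 of these cells had NPY, but so did all 19 NANOG-only hatching cells, so the class fixed this overlap. Of the 16 cells 6 had GAST, beside 7 of all 19. In late cells 1 of 16 SOX17-only and 16 of 27 NANOG-only cells had CPE, with a mean of 0.25 ± 0.71 in SOX17-only and 2.91 ± 2.44 in NANOG-only cells. Of the 16 late NANOG-only cells with CPE, 4 had NPY and 14 had GAST, beside 5 and 23 of all 27 late NANOG-only cells.

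FURIN, a convertase of the general secretory route, lay the other way in hatching cells. Its range was 29.3 to 179 FPKM in the 7 SOX17-only cells, against 0 to 16.4 FPKM in the 19 NANOG-only cells. How many of all genes had ranges apart in this way was not counted. The mean was 5.90 ± 0.96 in SOX17-only and 0.99 ± 1.39 in NANOG-only cells. PCSK7, another convertase, had means of 4.45 in early, 4.76 in middle, 4.27 in late and 2.80 in hatching cells. By stage the FURIN mean was 4.41 in early, 3.72 in middle, 2.0 in late and 2.31 in hatching cells. DPP4, a protease that removes N-terminal dipeptides from peptides including neuropeptide Y, had means of 7.55 in early, 7.61 in middle, 6.31 in late and 5.4 in hatching cells. In hatching cells it was 7.09 in SOX17-only and 4.78 in NANOG-only cells. Over the 12 genes, 3 were higher and 2 lower by at least 2 in SOX17-only than in NANOG-only hatching cells, with a median of -0.06 beside -0.45 for all genes, of which 6.22% were higher and 14.1% lower by at least 2.

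The convertases of regulated secretion and the amidating enzyme were scarce. PCSK1 was found in 0 early, 0 middle, 4 late and 5 hatching cells, and its 5 hatching cells were all NANOG-only. PCSK2 did not exceed 0.0198 FPKM in any cell. PAM, which amidates both peptides, was found in 5 early, 3 middle, 4 late and 1 hatching cells, and 0 of the 19 NANOG-only hatching cells with NPY had it (highest 0.155 FPKM). Of 17 listed genes of secretory granules, 15 have a row and 4 had a mean of at least 1 FPKM in some stage. Chromogranin A (CHGA), a core protein of such granules, was found in 7 early, 9 middle, 3 late and 0 hatching cells.

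**Figure D5:**
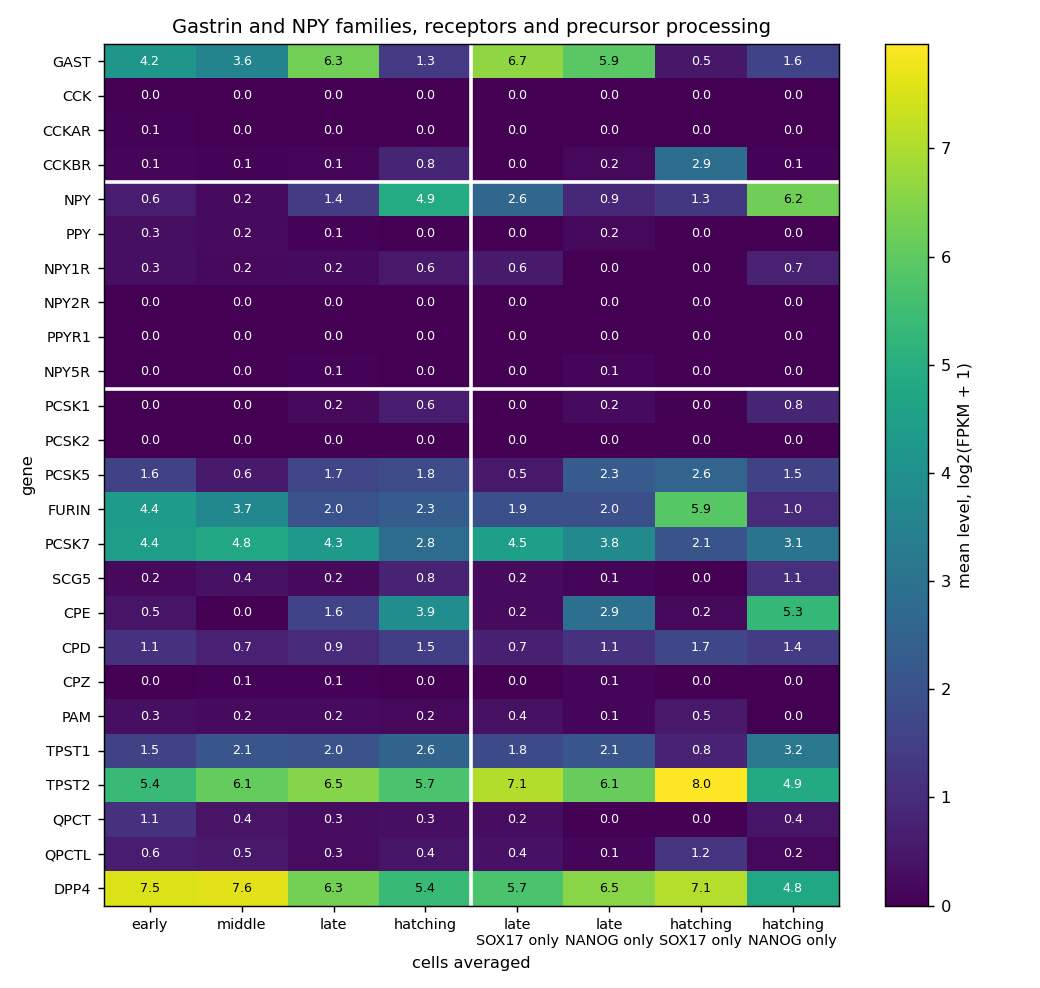
Each cell of the grid gives the mean log2(FPKM + 1) of 1 gene (rows) over the cells named below it (columns), with the 4 stages on the left and the SOX17-only and NANOG-only classes of late and hatching cells on the right; white lines part the gastrin family, the NPY family and the processing enzymes. CPE has its highest mean in NANOG-only hatching cells (5.30) and FURIN in SOX17-only hatching cells (5.90), while CCK, NPY2R and PPYR1 are at 0 throughout.

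Markers of other cells that make these peptides or could come with the embryo were read as summed lists. In 2 of these lists the sum was highest in hatching cells, with 1 gene of each list present in most NANOG-only hatching cells. The summed FPKM of 9 neuroendocrine markers had a median of 2.35 in early (range 0 to 95.7), 0.391 in middle (0 to 33.3), 8.13 in late (0 to 166) and 27.1 in hatching cells (0 to 163). In hatching cells the median sum was 0.493 in SOX17-only and 38.8 in NANOG-only cells. Of the 9 genes, 1 reached 1 FPKM in 50% or more of the late and hatching NANOG-only cells. This was UCHL1, a ubiquitin hydrolase abundant in neurons, named after its values were seen. It was found in 2 of 7 SOX17-only and 17 of 19 NANOG-only hatching cells, with a median of 26.8 FPKM in the NANOG-only ones. INSM1 and SCG2 were at 0 in every cell of all 4 stages, and 4 of the 9 genes were at 0 in every hatching cell. CHGA, on the same list, went the other way by stage, with no hatching cell at 1 FPKM. The summed FPKM of 9 cumulus and granulosa markers had a median of 0 in early (highest 14.8), 0 in middle (highest 9.06), 0 in late (highest 75.2) and 9.43 in hatching cells (highest 122). HAS2, a hyaluronan synthase that was also named after its values were seen, was found in 1 of 7 SOX17-only and 13 of 19 NANOG-only hatching cells, while AMH, FSHR and INHBA were at 0 in every cell. In hatching cells 6 of these 9 genes were at 0 throughout. The 13 trophectoderm markers were present at every stage, with summed medians of 2268 FPKM in early, 3506 in middle, 3654 in late and 3307 in hatching cells. Their part in the GAST and NPY levels was not tested.

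By Spearman correlation over all 161 cells, among 9404 other genes with a mean of at least 1 FPKM and 20 or more cells at 1 FPKM, the genes most like GAST were RNPS1 (0.44), NLRP7, MT1H and PGK1 (each 0.41), MT1B (0.40), LIM2 and TNNT2 (each 0.38) and EIF5 (0.37). The least like were IPMK (-0.44), INADL (-0.42), CBS and ITM2C (each -0.39). MT1H and MT1B are near-identical metallothionein copies, whose reads the counting could have split. These are weak correlations over cells that share stages, number ranges and depth. After ranking within each stage 2 of the 8, LIM2 and EIF5, were still among the first 8.

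The genes most like NPY were COL1A2 (0.57), RAB34 (0.56), FN1 (0.55), IGFBP4 (0.54), PHF19 and PTPLA (each 0.53), SPARC and LRRN1 (each 0.52). The least like were CSRP1, ZFAND2A, GCM1 and PDCL3 (each -0.49). Within stages the list was not of one kind. In hatching cells FN1, which encodes fibronectin, had a mean of 10.28 in SOX17-only and 2.79 in NANOG-only cells, and a Spearman correlation of -0.41 with NPY over 26 cells. IGFBP4, which encodes an IGF-binding protein, had 0.46 in SOX17-only and 6.86 in NANOG-only hatching cells and a correlation of 0.58 with NPY. COL1A2, a collagen chain gene, had 0.67 in SOX17-only and 4.25 in NANOG-only hatching cells. After ranking within each stage COL1A2 alone of the 8 was still among the first 8, at 0.39. GAST and NPY themselves had a Spearman correlation of -0.16 over all cells and of -0.01 after ranking within each stage. By stage it was 0.07 in early, -0.12 in middle, -0.12 in late and 0.21 in hatching cells.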

How the data were processed

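Single inner cells were sequenced as PCR-amplified cDNA in 150-bp paired reads, per the labels' protocols. FastQC, TopHat2 2.1.0, HTSeq and DESeq2 are named in the submitters' processing notes with no role or order, and neither build nor annotation is given in the sources used here. The authors deposited FPKM for 16049 gene symbols in 161 cells, and 0 columns failed to match a cell title. No cell's values equalled another's.

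Whole reads were recovered from the steps of the FPKM values for 13817 of 13857 genes above 0 in at least 2 cells (relative tolerance 2e-06 or absolute tolerance 1e-05). These genes hold 78.9% to 91.6% of a cell's summed FPKM. The reads serve only to describe depth, and no count model was fitted because each stage is 1 sample. PCR reads carry no molecular identifiers.

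Values were averaged over cells as log2(FPKM + 1), with the SD between cells. Differences were ranked among the 9781 genes with a mean of at least 1 FPKM over all cells, without a test. Python 3.11.15, pandas 2.3.3, numpy 2.4.6, scipy 1.17.1 and matplotlib 3.10.9 were used. The members, gene lists, title number ranges and settings were chosen with earlier results of these data known. Of each list, up to 4 genes with a mean of at least 1 FPKM in some stage were named by their largest stage difference, with the 8 most and 4 least similar genes. PCSK1, PCSK2, PAM, CCK, CCKAR, NPY2R, PPYR1 and NPY5R were named for their known role after their values were seen, as were ADM, NUCB2 and the genome neighbours. Of the members' sequences, 0 were in the reference tables used here, and none is shown. Alternatives covered the pseudocount, the average, rescaling, title ranges, detection and class thresholds, and the cells left out. Some genes of the lists are not reported here.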

Additional observations from a re-analysis of the deposited data

How the results depend on the processing

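Alternatives were tried for 12 differences past 2 log2 units, but not for GAST in NANOG-only late minus middle cells (2.19). Some alternatives could not change a value, such as leaving out HS-prefixed cells from hatching minus early cells. The counts here include such values. Of the 158 alternative values of the 12 differences, 157 kept their sign and 150 stayed past 2. The exception was NPY in hatching minus late cells, at -0.087 with the log2 of the mean FPKM in place of 3.51. With that average, NPY also moved to -1.66 in middle minus early, 6.47 in late minus middle, -5.26 in SOX17-only hatching minus late, 5.32 in late SOX17-only minus NANOG-only cells and 6.88 between late title ranges, and GAST to -3.05 in hatching SOX17-only minus NANOG-only cells. The NANOG-only difference of hatching minus late was 7.6 for NPY at a pseudocount of 0.1 and 2.88 at 10, and -7.53 for GAST in the lower title numbers. NPY in hatching SOX17-only minus NANOG-only cells was -2.77 at a pseudocount of 10, and in late cells it was 4.99 with a class threshold of 1 FPKM (5 against 24 cells). Why these moved was not tested.

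Counting any value above 0, or at least 0.1 FPKM, gave GAST in 93.2% of early, 89.7% of middle, 98.1% of late and 65.4% of hatching cells, NPY in 50% of late cells, and both genes in 50% of late and 53.8% of hatching cells. NPY was above 0 in 25.6% of middle cells. At 10 FPKM, GAST was in 75% and NPY in 13.5% of late cells, NPY in 0% of middle cells, and both in 5.77% of late and 0% of middle cells. Of the 8 most similar genes, Pearson correlation kept 5 for GAST and 2 for NPY. Leaving out each cell in turn, or the 2 cells with neither NANOG nor SOX17, was added after seeing the data. One cell at a time, the NPY difference of hatching minus late was 3.33 to 3.71, that of GAST was -5.15 to -4.85, and NPY in hatching SOX17-only minus NANOG-only cells was -5.69 to -4.73.

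No paired analysis was possible because each stage is 1 sample of different cells and the title numbers do not pair cells across stages. SOX17-only hatching cells have no higher title numbers, so no value exists for them there. Each low value rests on few reads, and the number of embryos behind a stage is unknown.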

Other observations

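Of 69 other peptide precursor genes on the list, 64 have a row and 24 had a mean of at least 1 FPKM in some stage. In hatching minus late cells 0 of the 24 were past 2 log2 units in either direction, where 1.38% of all genes were higher and 1.01% lower, so that 0 is near the background for 24 genes. The list had a median of 0.17 beside -0.14 for all genes. GAL, the precursor of the neuropeptide galanin, was the most widespread of those named, found in 40 of 44 early, 24 of 39 middle, 41 of 52 late and 25 of 26 hatching cells. Its mean was 2.81 ± 2.43 in middle and 5.47 ± 1.97 in early cells, a difference of -2.66 where 0.235% of genes were lower by at least 2. In hatching cells GAL was found in 6 of 7 SOX17-only and 19 of 19 NANOG-only cells, so all 19 NANOG-only cells held both NPY and GAL. EDN3, the precursor of endothelin 3, had a mean of 0.28 in hatching and 2.62 in early cells. Between hatching and early cells 0 of the 24 were higher and 1 was lower by at least 2. The shares of all genes were 3.15% higher and 3.84% lower. In SOX17-only against NANOG-only hatching cells 2 of the 24 were higher and 1 was lower. There 6.22% of all genes were higher and 14.1% lower. ADM, the precursor of adrenomedullin, ranged from 24.3 to 496 FPKM in the 7 SOX17-only hatching cells and did not exceed 0.413 FPKM in the 19 NANOG-only ones. How many of all genes had ranges apart in this way was not counted. NUCB2, the precursor of nesfatin, had 4.02 ± 1.91 in SOX17-only and 1.66 ± 1.83 in NANOG-only hatching cells, and STC2, the precursor of stanniocalcin 2, had 0.05 ± 0.05 in SOX17-only and 2.42 ± 1.97 in NANOG-only hatching cells. POMC, the precursor of corticotropin, was found in 15 early, 4 middle, 8 late and 1 hatching cells.

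Of 18 listed regulators of neuroendocrine cells, 15 have a row and 3 had a mean of at least 1 FPKM in some stage. ISL1, a LIM homeobox transcription factor, was found in 10 early, 5 middle, 15 late and 4 hatching cells. Genes beside GAST and NPY did not show their course. In the gene order of the RefSeq table (assembly T2T-MMU8v2.0, used for order only), EIF1 and JUP lie near GAST. EIF1 had means of 8.96, 8.76, 8.6 and 8.56 and JUP of 6.68, 7.26, 6.50 and 6.55 from early to hatching, while KRT17 was at 0 in every cell. STK31 and FAM221A lie near NPY and had means of 1.28, 2.35, 0.97 and 0.88 and of 0.21, 0.69, 0.98 and 1.05. Over all 161 cells, STK31 had a Spearman correlation of -0.31 with NPY, over cells that share stages and depth. HAP1, PALS2 and GSDME have no row under these symbols and were not analysed here.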
